A study of Mus musculus with 6 samples.

Results

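The 10 regions described here are germline imprinting control regions of the mouse genome, those of H19, Kcnq1ot1, Snrpn, Peg3, Mest, Peg10, Plagl1, Grb10, Nnat and Impact. They were fixed as 10 mm9 intervals named after the gene they control or lie in, and held 1188 of the 20451903 CpGs listed in the deposited table. Methylated and total reads were summed over each interval in each sample. The assay was whole-genome bisulfite sequencing of mouse LSK cells, which lack lineage markers, carry Sca-1 and c-Kit and include the blood stem cells of bone marrow. The groups were 3 samples lacking Tet2 and Tet3 (DKO) and 3 wild-type samples (WT), called biological replicates in the labels. The labels give no age, strain, way of deletion or number of animals per sample, so p-values measure the spread between these samples only. No RNA was measured, so the LSK label could not be checked against marker genes.

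Imprinted genes are expressed mainly from the maternal or the paternal chromosome. Their control regions receive DNA methylation in a single parental germline and keep it on that allele in body cells, while the other allele stays unmethylated. The H19 region is methylated on the paternal allele, and the other 9 on the maternal allele. ZFP57, a zinc finger protein that binds methylated TGCCGC, and TRIM28 protect these marks in the early embryo, and TET enzymes, which oxidise 5-methylcytosine, take part in erasing them in germ cells. Bisulfite sequencing reads 5-methylcytosine and 5-hydroxymethylcytosine alike, and a level here counts both. A level near 50% is what a fully methylated and an unmethylated allele give together, but the table counts reads per CpG and cannot assign them to alleles.

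Promoters of 7 of the 10 genes were in the RefSeq promoter table (GRCm38.p6), and all 7 genes could be placed on the mm9 CpGs by the spacing of their CG dinucleotides. The 250 bases before the start are shown for 6 promoters that lie in a control region or across its edge, with the measured CpGs in capitals. The 300-base promoter windows they come from are, in GRCm38.p6, chr10:13090582-13090881 (Plagl1, plus strand), chr6:30737800-30738099 (Mest, plus), chr2:157559828-157560127 (Nnat, plus), chr7:6730370-6730669 (Peg3, minus), chr7:60005150-60005449 (Snrpn, minus) and chr7:143296498-143296797 (Kcnq1ot1, minus).
Plagl1: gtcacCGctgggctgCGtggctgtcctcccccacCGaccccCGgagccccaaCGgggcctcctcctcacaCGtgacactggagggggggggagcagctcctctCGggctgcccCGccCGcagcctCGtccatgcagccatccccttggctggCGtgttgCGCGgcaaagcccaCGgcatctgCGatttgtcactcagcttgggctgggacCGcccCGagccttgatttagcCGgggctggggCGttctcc
Mest: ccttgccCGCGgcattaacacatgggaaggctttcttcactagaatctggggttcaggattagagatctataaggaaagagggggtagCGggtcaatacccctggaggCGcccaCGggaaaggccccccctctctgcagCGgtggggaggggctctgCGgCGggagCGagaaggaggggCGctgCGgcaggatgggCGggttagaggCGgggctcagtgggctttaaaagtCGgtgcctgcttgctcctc
Nnat: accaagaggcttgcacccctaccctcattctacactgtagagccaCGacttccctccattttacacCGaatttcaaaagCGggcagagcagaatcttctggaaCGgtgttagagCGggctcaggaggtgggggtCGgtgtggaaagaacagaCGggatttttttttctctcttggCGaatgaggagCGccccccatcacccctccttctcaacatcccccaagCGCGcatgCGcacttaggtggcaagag
Peg3: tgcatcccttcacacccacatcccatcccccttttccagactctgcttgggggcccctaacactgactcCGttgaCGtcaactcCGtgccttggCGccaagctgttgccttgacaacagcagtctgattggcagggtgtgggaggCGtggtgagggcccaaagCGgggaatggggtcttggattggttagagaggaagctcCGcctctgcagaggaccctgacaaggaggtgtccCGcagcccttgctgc
Snrpn: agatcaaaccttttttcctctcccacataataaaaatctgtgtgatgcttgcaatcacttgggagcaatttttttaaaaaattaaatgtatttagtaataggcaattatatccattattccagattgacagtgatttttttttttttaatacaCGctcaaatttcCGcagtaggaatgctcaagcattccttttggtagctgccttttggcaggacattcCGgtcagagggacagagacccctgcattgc
Kcnq1ot1: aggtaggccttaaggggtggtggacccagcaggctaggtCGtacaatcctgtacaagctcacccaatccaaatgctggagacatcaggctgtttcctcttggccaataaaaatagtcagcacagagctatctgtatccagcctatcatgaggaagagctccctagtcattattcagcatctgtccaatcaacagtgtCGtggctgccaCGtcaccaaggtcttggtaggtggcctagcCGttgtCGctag
The Plagl1 sequence holds 19 CGs and the Snrpn sequence 3, the most and the fewest of the 6. TGCCGC, searched on both strands, matched once in the Plagl1 sequence, starting 90 bases before the gene's start. It matched at 2 places in the Mest sequence, 242 and 67 bases before the start. It was in 8.68% of the same 250 bases of all 32851 RefSeq promoters.

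The table held 83560585 to 111763872 read calls per DKO sample and 70815948 to 72747248 per WT sample, a mean of 4.09 to 5.46 reads per CpG in DKO and 3.46 to 3.56 in WT. In the control regions the mean was 2.19 to 7.58 reads per CpG in DKO and 1.02 to 6.40 in WT, from 94 to 1126 read calls per region and sample. The 95% Wilson intervals of single levels reached 2.70 to 9.85 points to either side. They cover counting error only and are too narrow, since a read is counted at each CpG it spans. The mitochondrial genome, a measure of incomplete conversion, was called methylated at 1.71% ± 0.1698 in DKO and 1.28% ± 0.0797 in WT (SD, n = 3 each). It was higher in all 3 DKO samples, by a mean of 0.437 points, and its part in the results below was not tested.

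The control regions stood at intermediate levels in both genotypes. Group means ran from 33.1 to 54.9% in DKO and from 19.1 to 51.5% in WT, where all autosomal CpGs had 81.6% ± 0.826 in DKO and 80.8% ± 0.314 in WT (SD, n = 3 each). A level above 50% was seen in 7 of 30 DKO values and 3 of 30 WT values. The mean over the 10 regions was 42.2, 38.8 and 43.8% in the DKO samples, against 38.1, 39.5 and 32.3% in the WT samples. The genotypes overlapped in this mean, since DKO replicate 2 lay below WT replicate 2. The DKO mean was 4.97 points above the WT mean. The level was higher in DKO in 8 of 10 whole regions but in 15 of the 28 tested 1 kb windows within them, where 58.2% of all tested 1 kb windows had a higher DKO mean, and 70.4% of those of mean level 25 to 60% with at least 20 CpGs, a class set after the data were seen.

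**Figure D1:**
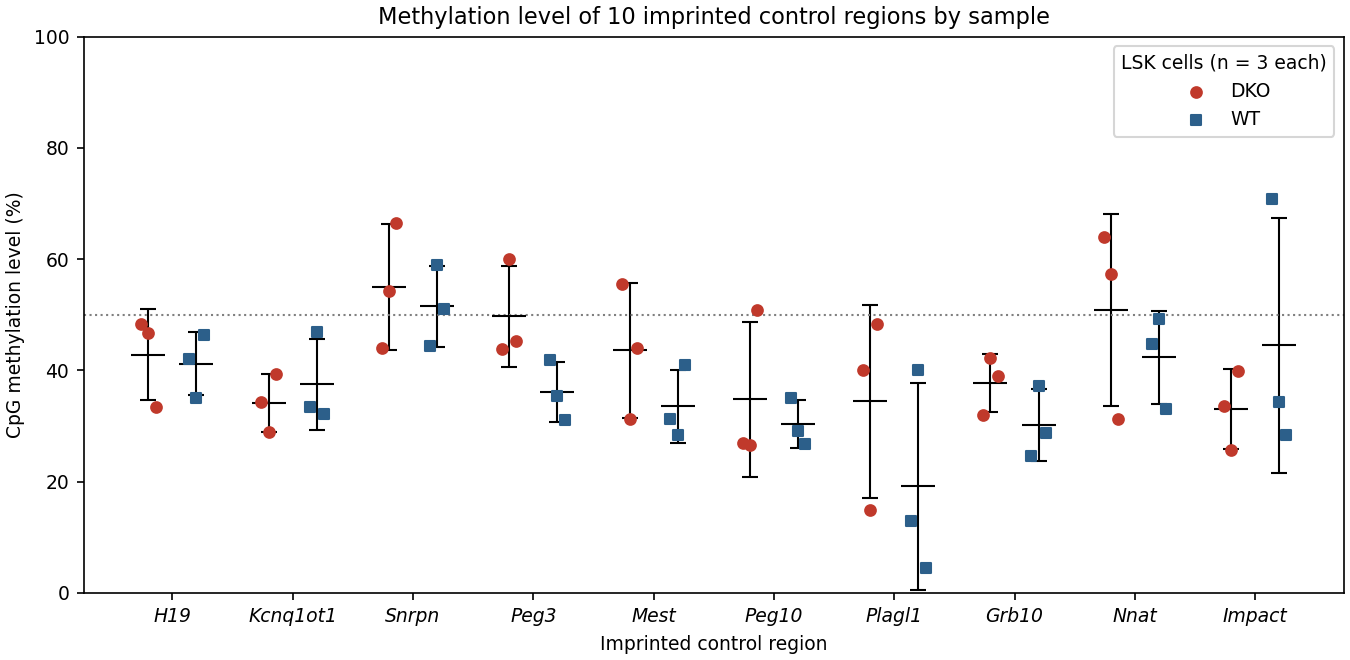
Methylation level (%) of each control region in each sample, with points for the 3 DKO samples (red circles) left of the 3 WT samples (blue squares), and black bars for mean and SD; the dotted line marks 50%. Peg3 is the only region of the 10 whose DKO points all lie above its WT points, and the WT points of Impact span 28.4 to 70.8%.

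The H19 control region (chr7:149766100-149768500, 65 CpGs) is an insulator between Igf2 and shared enhancers that acts when unmethylated; H19 itself is a noncoding RNA. It had 48.3, 46.8 and 33.4% in the DKO samples, against 42.0, 35.1 and 46.4% in the WT samples. The samples of the genotypes were interleaved, with DKO replicate 3 the lowest of all 6. The difference was 1.65 ± 5.75 points (SE, n = 3 each; two-sided exact permutation p = 0.7). It was the only paternally methylated region of the 10, and its group means of 42.8% in DKO and 41.2% in WT lay within the range of the maternal ones. With reads pooled per genotype, the 500 bp bins wholly inside it were even, at 41.8 to 50% in DKO and 32.5 to 43.3% in WT. Single samples in these bins ran from 13.8 to 55.1% in DKO and from 16.3 to 59.3% in WT. On its low-coordinate side, where H19 lies, the bin centred 3250 bp from the middle was also intermediate, at 47.2% in DKO and 43.9% in WT.

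The Kcnq1ot1 region (chr7:150480700-150482800, 104 CpGs) contains the promoter of a noncoding RNA that silences neighbouring genes in cis on the paternal chromosome. It had 34.3, 28.9 and 39.3% in the DKO samples, against 33.3, 47.0 and 32.1% in the WT samples. WT replicate 2 was the highest sample, and the other WT values lay inside the DKO range. The difference was -3.30 ± 5.63 points (SE; exact permutation p = 0.7, n = 3 each). It was 1.46 points without WT replicate 2, and -14.2 points over the 24 CpGs that had 3 or more reads in each sample. Its promoter, shown above and read at 9 CpGs, had 30.2% ± 3.32 in DKO and 32.7% ± 17.3 in WT (SD, n = 3 each).

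Snrpn encodes a subunit of spliceosomal ribonucleoproteins, and its region (chr7:67147900-67150300, 64 CpGs) belongs to the centre that governs the Prader-Willi and Angelman domain. It had 44.0, 54.3 and 66.5% in the DKO samples, against 44.4, 58.9 and 51.1% in the WT samples, with the WT values inside the DKO range. Both means, 54.9% in DKO and 51.5% in WT, were the highest of the 10 regions. The difference was 3.44 ± 7.75 points (SE; exact permutation p = 0.7, n = 3 each). The interval was uneven. The bin 750 bp to the low-coordinate side of its centre was at 92.6% in DKO and 89.6% in WT, and the bin 250 bp to the other side at 43.9% in DKO and 22.4% in WT. The printed promoter, across the high-coordinate edge and read at 7 CpGs, was lower in DKO by 8.06 points. It had 50.7, 58.9 and 43.75% in the DKO samples, against 60, 70 and 47.6% in the WT samples. The genotypes overlapped there, from 10 to 67 read calls per sample.

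Peg3 encodes a zinc finger protein and is expressed from the paternal allele. Its region (chr7:6679000-6684500, 153 CpGs) had 43.8, 60.1 and 45.3% in the DKO samples, against 41.8, 35.5 and 31.1% in the WT samples. All DKO samples lay above all WT samples, DKO replicate 1 and WT replicate 1 being close together. The difference was 13.6 ± 6.07 points (SE, n = 3 each; exact permutation p = 0.1, below which a comparison of 3 with 3 cannot go). Such an order held in 1 of 10 regions and the reverse order in 0, where 9.05% of all tested windows showed that order and 3.75% the reverse. In the fit across all windows the Peg3 region had an adjusted p of 0.0843 (moderated quasi-binomial test), and 0.139 to 0.957 under the other settings. The difference was 8.38 points without DKO replicate 2, and the 5 CpGs that had 3 or more reads in each sample gave -7.02 points. The gap was widest in the bin 250 bp from the centre, with pooled levels of 68.9% in DKO and 19.3% in WT over 22 CpGs. The DKO samples had 59.6, 73.4 and 64.8% in that bin, against 47.3, 10.8 and 11.6% in the WT samples. Its promoter, at 13 CpGs, had 30.2, 65.6 and 13.95% in the DKO samples, against 26.9, 0.00 and 13.6% in the WT samples, and the genotypes overlapped there.

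Mest encodes a protein of the alpha/beta hydrolase fold. Its region (chr6:30684900-30689900, 183 CpGs, the most of the 10) had 55.6, 31.3 and 44.0% in the DKO samples, against 31.2, 28.4 and 40.9% in the WT samples. DKO replicates 1 and 3 lay above every WT sample, and DKO replicate 2 lay among them. The difference was 10.1 ± 7.98 points (SE; exact permutation p = 0.2, n = 3 each), 4.09 points without DKO replicate 1 and 16.2 without DKO replicate 2. The table lists a promoter inside the region and another on the low-coordinate side of it. The inner promoter averaged 23.2% ± 15.8 in DKO and 9.003% ± 6.11 in WT (SD, n = 3 each), and the outer promoter 95.9% ± 4.36 in DKO and 87.3% ± 5.89 in WT. In the inner promoter as printed, 0 of 14 CpGs lacked a methylated read in DKO and 8 of 14 lacked one in WT, with reads pooled over samples. Those 8 CpGs had 8 to 10 reads in WT and 10 to 18 in DKO, and neighbouring CpGs share reads. The promoter as a whole had 26.2, 6.06 and 37.2% in the DKO samples, against 7.27, 3.95 and 15.8% in the WT samples, with DKO replicate 2 inside the WT range.

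Peg10 is a retrotransposon-derived gene needed for the placenta. Its region (chr6:4697200-4699500, 153 CpGs) had 27.0, 26.5 and 50.8% in the DKO samples, against 35.1, 29.0 and 26.9% in the WT samples. DKO replicate 3 stood above the other 5 samples, which lay between 26.5 and 35.1%. The difference was 4.44 ± 8.39 points (SE; exact permutation p = 0.9, n = 3 each). With reads pooled per genotype, the direction was not the same along the region. The bin 250 bp to the low side of the centre had 33.3% in DKO and 11.4% in WT, and the bin 750 bp to the low side had 36.7% in DKO and 53.6% in WT. The genotypes overlapped in both bins. Samples ran from 12.8 to 56.3% in DKO and 0.00 to 18.9% in WT in the former. In the latter they ran from 18.0 to 51.4% in DKO and 34.5 to 67.5% in WT.

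Plagl1 encodes a zinc finger transcription factor that restrains growth. Its region was the shortest (chr10:12810300-12811000, 64 CpGs) and had 40, 14.9 and 48.4% in the DKO samples, against 12.95, 40 and 4.42% in the WT samples. Both genotypes were widely scattered, with SDs of 17.4 points in DKO and 18.6 in WT. The difference of 15.3 ± 14.7 points was about as large as its error (SE; exact permutation p = 0.3, n = 3 each). It was 7.97 points without WT replicate 3, 8.34 without DKO replicate 3, 25.1 without DKO replicate 2 and 25.8 without WT replicate 2. The printed promoter, read at 26 CpGs with the bases just after the start, had 100, 5.42 and 51.7% in the DKO samples, against 14.1, 0.00 and 0.00% in the WT samples. The DKO value of 100% rests on 12 read calls, and the value of 5.42% on 166.

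Grb10 encodes an adaptor that dampens insulin receptor signalling. Its region (chr11:11925400-11927000, 158 CpGs, the densest) had 31.9, 42.2 and 39.0% in the DKO samples, against 24.6, 37.3 and 28.8% in the WT samples. WT replicate 2 lay inside the DKO range. The difference was 7.47 ± 4.81 points (SE; exact permutation p = 0.2, n = 3 each), and 0.818 points in the middle 50% of the region. The table lists 2 Grb10 promoters outside the region. The nearer, 0.925 kb away, had 64.6% ± 21.002 in DKO and 61.4% ± 7.14 in WT (SD, n = 3 each). The farther, 10.4 kb away and with 45 CpGs, had 0 methylated of 142 read calls in DKO and 0 of 108 in WT. A limit of 3 counts gives 2.11% in DKO and 2.78% in WT. This limit covers counting error only and is too low, since a read is counted at each CpG it spans.

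Nnat encodes a small membrane protein and lies inside an intron of Blcap. Its region (chr2:157385700-157387500, 92 CpGs) had 63.9, 57.3 and 31.2% in the DKO samples, against 44.7, 49.3 and 33.1% in the WT samples. DKO replicate 3 was the lowest of the 6 samples and the other DKO samples the highest. The difference was 8.44 ± 11.1 points (SE; exact permutation p = 0.5, n = 3 each), from 94 to 248 read calls per WT sample. Inside the region the direction was not the same throughout. The bin 250 bp to the low side of the centre had pooled levels of 36.4% in DKO and 71.6% in WT. The bin 250 bp to the high side had 64.7% in DKO and 33.7% in WT. The window chr2:157386001-157387000 had 47.9% in DKO and 54.7% in WT, and the window beside it 58.5% in DKO and 55.7% in WT. The genotypes overlapped in both windows. The promoter across the low-coordinate edge of the region had 66.0, 57.0 and 64.8% in the DKO samples, against 12.1, 45.5 and 34.9% in the WT samples. There the DKO samples all lay above the WT samples, by a mean of 31.8 points. The pooled DKO level was higher at all 9 CpGs of the printed sequence with at least 5 reads in both genotypes. In the other printed sequences it was higher at 14 of 14 such CpGs at Mest and 17 of 18 at Plagl1. The count was 4 of 5 at Kcnq1ot1, 4 of 7 at Peg3 and 0 of 3 at Snrpn. Neighbouring CpGs share reads, so these are not separate observations. The DKO samples were all above the WT samples in 4.69% of 14186 placed autosomal promoters, and all below in 0.782%.

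Impact encodes an inhibitor of the stress kinase GCN2. Its region (chr18:13130000-13133500, 152 CpGs) had 33.5, 25.7 and 39.96% in the DKO samples, against 70.8, 34.2 and 28.4% in the WT samples. WT replicate 1 stood above the other 5 samples, and the remaining WT values lay inside the DKO range. The difference was -11.4 ± 13.9 points (SE; exact permutation p = 0.6, n = 3 each), and 1.73 points without WT replicate 1. That sample had 1.98 reads per CpG in the region, the lowest of the 6.

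The profiles across the regions showed a trough of intermediate methylation between highly methylated flanks. Over 5 kb on each side, flanks had group means of 60.02 to 94.2% in DKO and 47.5 to 94.8% in WT. The region lay below its own flanks in 57 of 60 pairs of region and sample. The exceptions were 3 samples at Nnat, whose high-coordinate flank runs into unmethylated sequence, with 0.00% in DKO and 0.256% in WT in the bin 5250 bp from the centre. The flanks had a higher DKO mean at 4 of 10 regions, with a median difference of -0.846 points. All DKO flanks lay above all WT flanks at Nnat, by a mean of 12.5 points (exact permutation p = 0.1, n = 3 each).

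**Figure D2:**
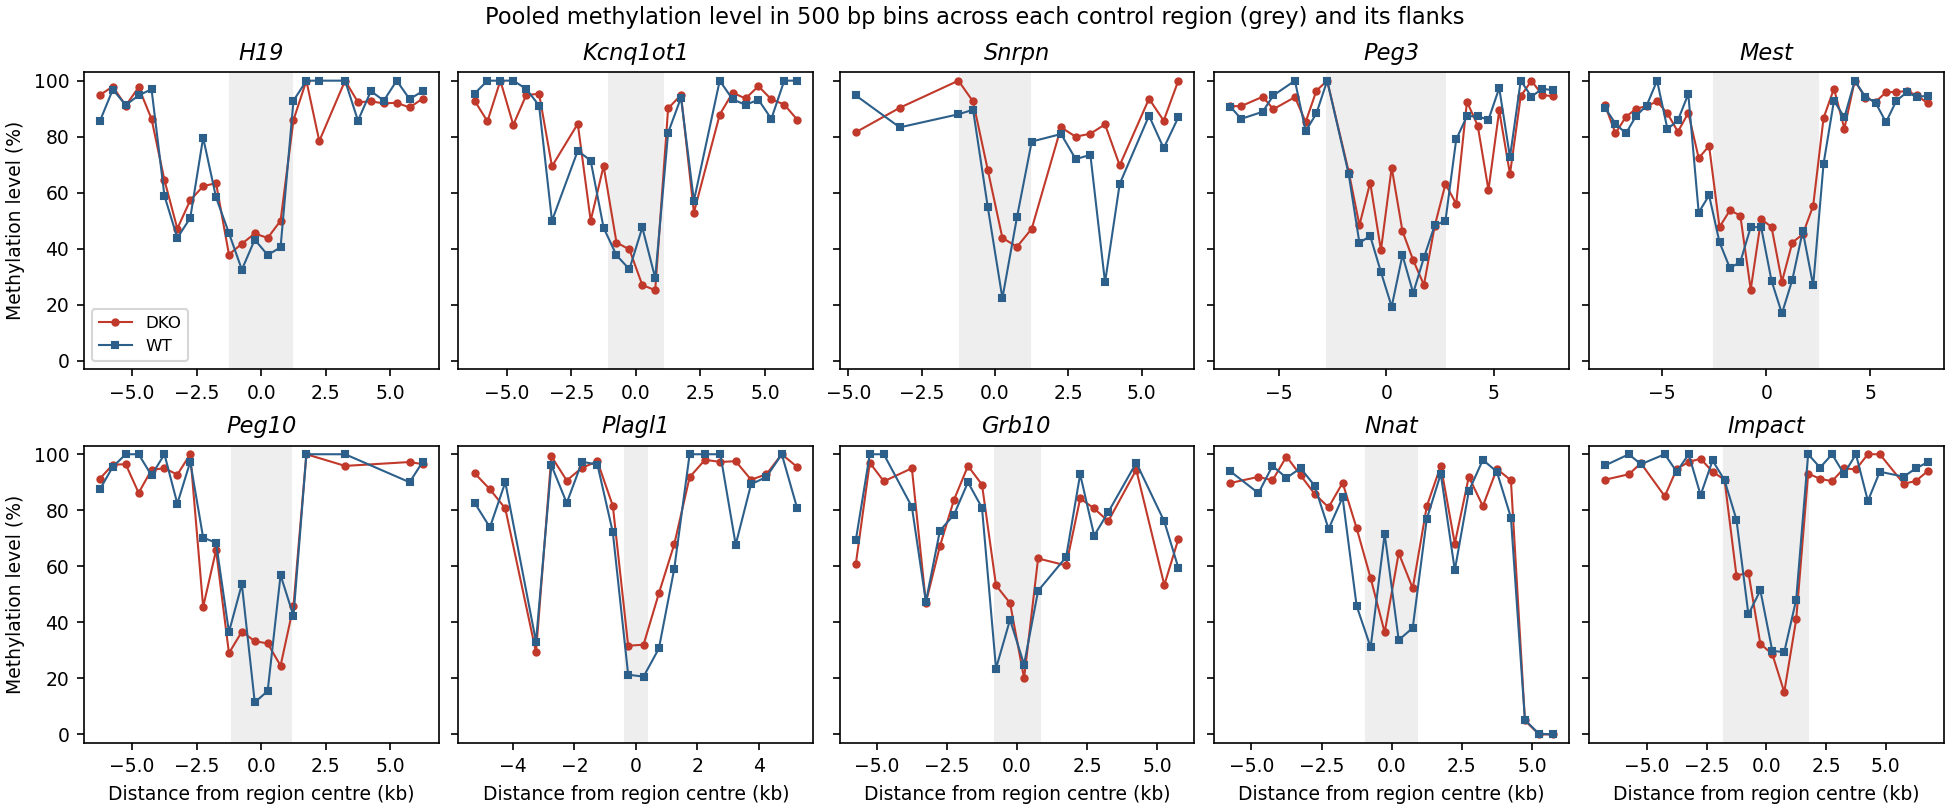
Methylation level (%) with reads pooled per genotype in 500 bp bins against distance from the centre of each control region (kb), DKO as red circles and WT as blue squares, grey marking the region; bins with under 10 reads in a genotype are not drawn. Both lines drop in or next to each grey area, and at Nnat they come near 0 beyond 5 kb on the right.

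Single CpGs showed the same intermediate state. With reads pooled per genotype and at least 10 in both, 418 CpGs of the regions could be classed. Of these, 67.7% lay between 25 and 75% in DKO and 62.4% in WT, against 12.2% in DKO and 12.6% in WT of 8214526 autosomal CpGs. Below 10% were 3.35% in DKO and 9.33% in WT, and above 90% were 3.11% in DKO and 1.44% in WT. H19 had the largest WT share between 25 and 75%, 49 of 60 CpGs, beside 52 of 60 in DKO. Peg10 had the smallest WT share, 6 of 33, beside 26 of 33 in DKO. The smallest DKO shares were at Nnat, 2 of 7 beside 4 of 7 in WT, and at Impact, 17 of 42 beside 30 of 42 in WT. These shares pool samples that differ in depth, and neighbouring CpGs share reads, so they are given as descriptions.

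**Figure D3:**
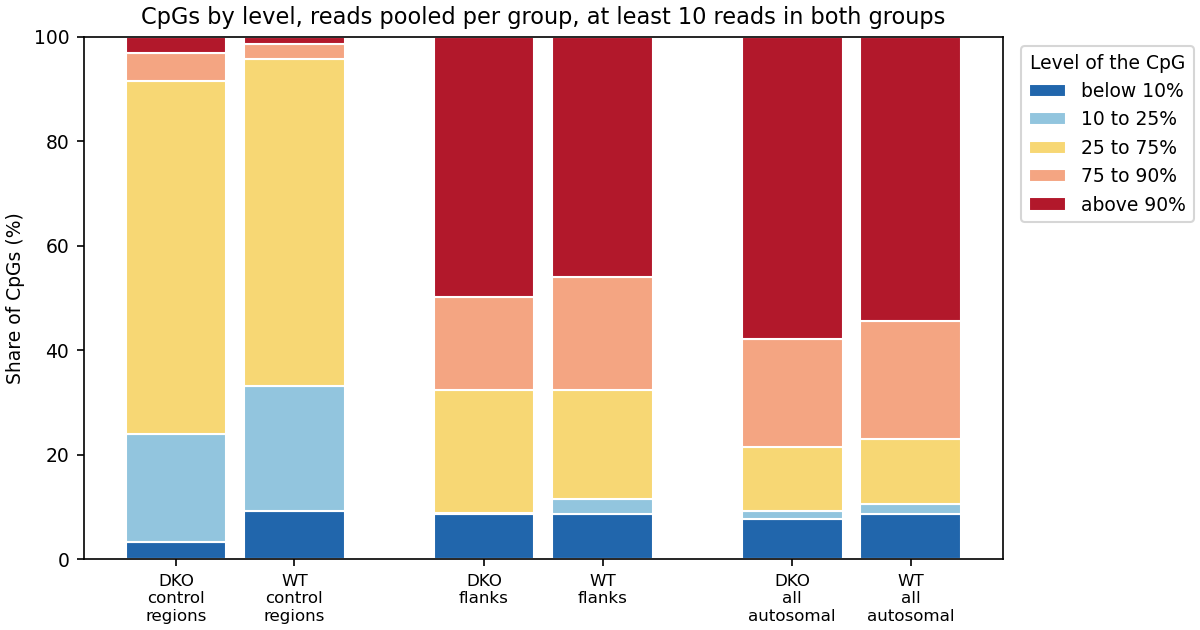
Share of CpGs (%) in 5 classes of methylation level, reads pooled per genotype, for the control regions (418 CpGs), their flanks of 5 kb on each side (413) and all autosomes (8214526), DKO left of WT in each pair. The class of 25 to 75% takes 67.7% of CpGs in DKO and 62.4% in WT in the control regions and near 12% over the autosomes.

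The spread between samples was wide in the control regions. The within-group dispersion, the spread relative to binomial counting error, had a median of 19.5 over the 10 regions, against 2.06 over 774732 tested 1 kb windows. Each region exceeded at least 97.8% of the windows. Regions also held more reads, a median of 421 per sample against 52 in the windows, and the part of read number in the dispersion was not tested. Among single windows the median was 7.996 in the 28 tested windows of the control regions. It was 4.34 in 9143 windows of mean level 25 to 60% with at least 20 CpGs. The median SD of a region was 10.2 points in DKO and 6.91 in WT. No sample was highest or lowest throughout. WT replicate 2 was highest at Kcnq1ot1, WT replicate 1 at Impact, and a DKO sample at the other 8 regions. The lowest sample was DKO replicate 1 at 1 region, DKO replicate 2 at 3 and DKO replicate 3 at 2. It was WT replicate 1 at 1 region, WT replicate 2 at 1 and WT replicate 3 at 2.

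In the test across all windows 1 of 28 windows in the control regions was called and 0 of the 10 whole regions (moderated quasi-binomial test, adjusted p under 0.05 with a difference of 10 points or more). Of all tested windows 0.282% were called, 0.28% as higher in DKO and 0.00271% as lower. At an unadjusted p of 0.05 there were 8 windows, 7 of them higher in DKO, and 3 regions, all higher, against 7.9% of all windows, or 6.37% counting only those higher in DKO. Limma on log2 ratios called 0 of the 28 windows and 0 of the 10 regions, and 0 regions had an unadjusted p under 0.05. In the class of intermediate, CpG-dense windows 3.25% were called and 27.3% passed an unadjusted p of 0.05, and the median difference was 5.47 points. It was 1.95 points over the 28 windows, 5.95 points over the 10 regions and 0.928 points over all tested windows. The DKO samples were all above the WT samples in 5 of the 28 windows and all below in 0, against 17.1% above and 2.14% below in that class.

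The called window crossed the low-coordinate edge of the Grb10 region (chr11:11925001-11926000, 62 CpGs, 93 to 447 reads per sample). It had 48.9, 56.2 and 57.0% in the DKO samples, against 20.5, 32.0 and 38.0% in the WT samples. The groups did not overlap, and the difference was 23.8 points (adjusted p = 0.0211, moderated quasi-binomial test). The adjacent Grb10 window had 30.3% in DKO and 32.1% in WT. The call was lost when any single sample was left out, with adjusted p of 0.124 to 0.510 by the same test, while the difference was 19.0 to 27.7 points and calls over all windows dropped to 0 to 69, against 2187 with all samples. The other settings gave adjusted p of 0.0211 to 0.957. The largest difference in the other regions was -30.5 points in a Peg10 window across the high-coordinate edge of its region (chr6:4699001-4700000, 23 CpGs). This window had 8.33, 36.2 and 46.4% in the DKO samples, against 64.3, 39.2 and 78.9% in the WT samples. The genotypes overlapped in it, from 24 to 79 reads per sample. The Peg10 window beside it (chr6:4698001-4699000, 59 CpGs, 114 to 418 reads), named after its values were seen, went the other way by 18.8 points. It had 21.01, 23.7 and 57.1% in the DKO samples, against 19.1, 14.9 and 11.4% in the WT samples, without overlap (adjusted p = 0.359 by the same test). At Peg3 the largest was 22.0 points (chr7:6681001-6682000), with 49.5, 64.0 and 55.7% in the DKO samples, against 41.0, 32.3 and 30.0% in the WT samples (adjusted p = 0.0996 by the same test). At Mest, 4 of 5 windows had a higher DKO mean, 3 of them by 17.2, 16.7 and 13.8 points with an unadjusted p under 0.05, and the window with the largest difference was lower in DKO, at -17.4 points. None of the Mest windows was called, and the genotypes overlapped in each. In the remaining regions the largest window differences were between -12.4 points, at Impact, and 9.47 points, at Snrpn, and none of them was called.

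Promoters of other imprinted genes mostly had low methylation in both genotypes. Of a list of 54 such genes, 35 were placed outside the 10 regions, and 31 genes with 40 promoters had at least 10 reads in every sample. Of these promoters 25 were below 10% in WT, 5 lay between 25 and 75%, and 4 above 75%. The median difference was 0.00 points, as over all placed promoters. Among promoters between 25 and 75% in WT it was -6.18 points over these 5, and 8.08 points over 707 of all placed promoters. The DKO samples were all above the WT samples in 4 of the 40 (10.0%) and all below in 0, against 4.69% and 0.782% of all placed promoters. The difference was at least 10 points in 3 of them, against 2.63% of all placed promoters. Nap1l5, an imprinted gene within an intron of Herc3 that resembles nucleosome assembly proteins, had 74.4, 96.0 and 70.8% in the DKO samples, against 37.8, 35.7 and 45.2% in the WT samples, from 24 to 45 reads per sample. Ndn, which encodes the growth suppressor necdin in the Snrpn domain, had 58.9, 28.8 and 45.7% in the DKO samples, against 25, 3.33 and 8% in the WT samples. The promoter of Asb4 at chr6:5340160-5340459, a gene of the Peg10 domain, had 17.1, 29.4 and 26.3% in the DKO samples, against 0.00, 5.45 and 0.00% in the WT samples.

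The 5 promoters whose WT level was nearest to 50% were those of Zrsr1, Gnas, Nap1l5, Mkrn3 and Meg3. Zrsr1, a splicing factor gene inside Commd1, had 56.1, 26.8 and 28.3% in the DKO samples, against 64.9, 55.6 and 32.1% in the WT samples. Gnas, the gene of the stimulatory G protein alpha subunit, had 30, 16.04 and 40% in the DKO samples at its promoter at chr2:174109571-174109870, against 34.4, 58.5 and 36.8% in the WT samples. Both of these promoters had the higher mean in WT, and their genotypes overlapped. The other Gnas promoters, at chr2:174153000-174153299 and chr2:174155257-174155556, had the higher mean in DKO. The former had 56.25, 21.7 and 15.4% in the DKO samples, against 0.00, 0.00 and 18.1% in the WT samples. The latter had 50, 0.00 and 0.00% in the DKO samples, against 0.00% in each WT sample. The high values of DKO replicate 1 rest on 16 reads in the former and 20 in the latter. The genotypes overlapped at each. Mkrn3, a ubiquitin ligase gene of the Snrpn domain, had 13.4, 50 and 8.82% in the DKO samples, against 25, 26.2 and 39.5% in the WT samples. Meg3, a maternally expressed noncoding RNA, had 30.4, 56.2 and 85.1% in the DKO samples, against 25.6, 30.8 and 30.4% in the WT samples. At Meg3 DKO replicate 1 lay inside the WT range and the other DKO samples above it.

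**Figure D4:**
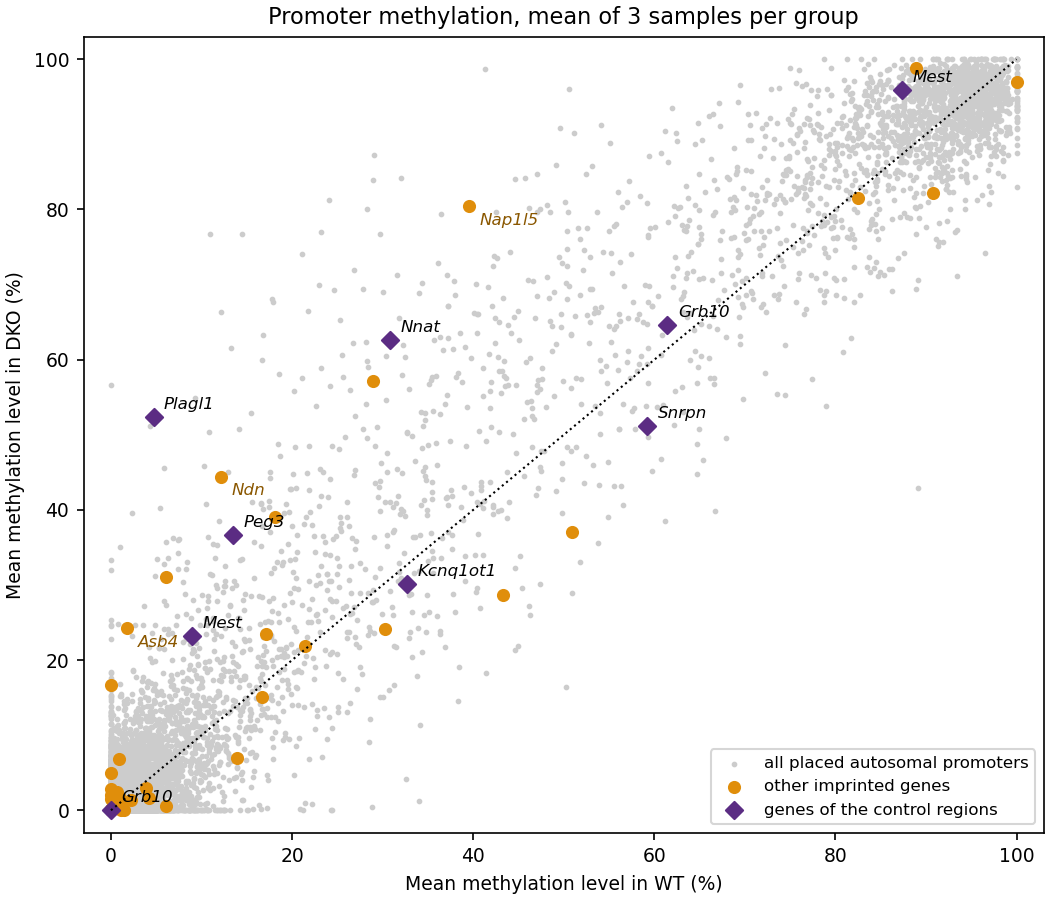
Mean promoter methylation (%) in DKO (vertical axis) against WT (horizontal axis), 3 samples each; diamonds are promoters of the control-region genes, orange circles 40 promoters of other imprinted genes, grey points 14186 placed autosomal promoters, and the dotted line marks equal levels. Nap1l5, Ndn and Asb4 lie above the line with groups apart by at least 10 points, and the far Grb10 promoter lies at 0 in both genotypes.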

How the data were processed

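The deposited table gives, per the file headers, raw counts of methylated and of total reads per CpG and sample. The submitters' processing notes name BSMAP 2.74 and build mm9. How reads were filtered, trimmed or deduplicated is not given in the sources used; duplicates left in would widen the spread between samples. There were 0 columns of other samples. The 10 intervals and the gene lists were chosen with earlier results of these data known.

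A level is methylated over all reads, in percent. Start positions count from 0 in the table, as its rows of 2 bp show, and are printed from 1 for windows and promoters. Windows of 1 kb on the autosomes holding 3 or more CpGs, with 20 or more reads per sample, were tested together with the 10 regions in a quasi-binomial logistic model of genotype (R 4.3.3). Dispersions came from the residual deviance, were moderated (the moderated quasi-binomial test) with limma 3.58.1 (squeezeVar, prior from the windows, floor of 1) and tested by F tests. P-values were Benjamini-Hochberg adjusted over all windows and regions. Calls required an adjusted p under 0.05 with a difference of 10 points or more, and a window counted as in a region from 500 bp of overlap. Single values were compared by two-sided exact permutation tests (scipy 1.17.1).

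RefSeq promoters with at least 6 CGs were placed where at least 80% of their CGs, and no other CpG, were listed at the same spacing at a single position of the chromosome. Of 32619 promoters 18231 were placed; 24 of these were dropped for lying over 100 kb out of order with their neighbours. Of overlapping promoters of a gene only the first was kept. All 10 regions were named. Of other imprinted promoters, those with groups apart by at least 10 points and the 5 nearest to 50% in WT were named, and of windows in the regions, those called and the largest difference per region. Alternatives were other read minima, window sizes, CpG weights, tests, a replicate block and leaving out each sample.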

Additional observations from a re-analysis of the deposited data

How the results depend on the processing

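Windows called genome-wide were 2187 as reported and 0 to 69 with a sample left out. They were 109 and 122 with minima of 10 and 40 reads, and 0 with limma on log2 ratios, with 500 bp windows and with each window's own dispersion, an alternative chosen after seeing the data. A dispersion prior that follows the reads, also chosen after seeing the data, gave 1930. Windows called in the control regions were 1 as reported and 0 to 0 with a sample left out. They were also 0 under those minima, limma, 500 bp windows and own dispersion. Whole regions called were 0 in every setting run, with 0 to 3 at an unadjusted p of 0.05. With the replicate number as a block, 0 windows were called genome-wide and 0 in the control regions, and 52795 passed an unadjusted p of 0.05. Deviations from the group means correlated at 0.00332 to 0.00359 between same-numbered samples and at -0.00204 to -0.00136 between the others. All of these are close to 0, but a check over single windows of low depth cannot exclude a pairing.

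The mean difference over the 10 regions was 2.81 to 6.39 points with a sample left out, 7.39 over CpGs read in every sample, 6.66 in the middle 50% of each region and 4.18 after centring on the autosomal level. Single regions depended more on which CpGs were used. Over CpGs that each sample read 3 or more times, of which Peg3 kept 5, Snrpn 6, Peg10 13 and Kcnq1ot1 24, the differences were -7.02, -13.1, 42.4 and -14.2 points; no mean over the 10 could be had, since some regions kept none. The sign changed in at least 1 setting for H19, Kcnq1ot1, Snrpn, Peg3, Peg10, Nnat and Impact. It changed in 0 for Mest, Plagl1 and Grb10, whose differences still varied between 4.09 and 16.2, 7.97 and 25.8, and 0.818 and 13.98 points. Plagl1, Grb10 and Nnat were run in 10 settings, the other regions in 12. The settings missing are those of CpGs with 3 or more reads in each sample, of which they kept none. Depth was 1.02 to 7.58 reads per CpG in the regions, and with 3 samples per genotype the exact test of a single region cannot go below 0.1 whatever the difference.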
